A study of Mus musculus with 8 samples.

Results

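Matrix metalloproteinases and their tissue inhibitors were followed in CT26 tumors through 10 genes, Mmp2, Mmp3, Mmp9, Mmp10, Mmp12, Mmp13, Mmp14, Timp1, Timp2 and Timp3. The members were taken by gene name from the array annotation, and they make up 10 of the 37309 gene names on the array, with 16 of its 56567 usable probes. All 10 genes entered the tests, with 15 of the 16 probes, beside 21616 genes and 31912 probes in all, since a probe was tested where some group had both of its arrays well above background. The probe left out was 1 of 3 for Timp3, which was not well above background on any of the 8 arrays.

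CT26 is a colon carcinoma line of BALB/c mice. Tumors were grown under the skin of the flank from 500000 cells, and for 2 weeks mice received vehicle alone, TP-16 alone, the anti-PD-1 antibody alone or the agents in combination, 2 samples per group. TP-16, named BY001 in the labels of the samples, is an antagonist of the prostaglandin E2 receptor EP4 and was given by mouth at 75 mg/kg every day. The antibody binds the T-cell checkpoint receptor PD-1 and was injected into the peritoneum at 50 µg per mouse with 2 doses a week. The study's methods give female mice 6 to 10 weeks old for its purchased strains, BALB/c among them. Every group carried the same implanted line, no genetic change to the host is named, and the RNA came from whole tumor tissue of a subcutaneous graft rather than from the colon. Whether a sample was 1 tumor or a pool is not stated, so p-values measure only the spread between these samples. The 8 one-color arrays shared 1 slide and 1 scan. Row 1 held the groups without antibody and row 2 the groups with it, while columns 1 and 2 held the groups without TP-16 and columns 3 and 4 those with it. Slide row and antibody, and slide column and TP-16, therefore cannot be told apart.

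The matrix metalloproteinases are zinc-dependent enzymes, mostly secreted as inactive precursors, that cleave collagens, gelatin, proteoglycans and other parts of the extracellular matrix, and also process cytokines and growth factors. The tissue inhibitors of metalloproteinases (TIMPs) bind the active enzymes and block them. In tumors, fibroblasts, macrophages, neutrophils and tumor cells all make members of these families, and the enzymes are known for remodelling stroma and vessels. An mRNA level says nothing of how much enzyme is active.

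Values below are log2 intensities minus the 75th percentile of the same array, and differences between groups are on this log2 scale unless a fold is named. Levels of different probes are not compared with each other, since probes differ in how well they hybridise. A gene was called where its fold was at least 2 and its adjusted p, from limma with Benjamini-Hochberg adjustment over all probes tested, was at most 0.05. For genes with several probes, the probe with the highest mean stands for the gene. Over all probes, the median difference from vehicle was -0.12 under TP-16, -0.097 under anti-PD-1 and -0.20 under the combination, and quantile normalization moved these medians to 0.036, -0.0097 and -0.013. Replicate arrays lay furthest apart in the vehicle group, with an SD of their differences of 0.68 against 0.42 to 0.53 in the treated groups. Replicate 2 of TP-16 and replicate 2 of anti-PD-1 also stood apart in the summed level of 3 epidermis markers (Krt5, Krt14 and Krt10), at 27.6 and 28 times the 75th percentile intensity against 1.93 to 4.71 on the other 6 arrays. Without TP-16 replicate 2, the members called below (Mmp2, Mmp3 and Timp3) differed from vehicle under TP-16 by 0.49, 0.70 and 0.47. Without anti-PD-1 replicate 2, they differed from vehicle under anti-PD-1 by 0.99, 0.87 and 0.92. The differences of the combination from vehicle use neither array.

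Of the members in 1 gene cluster, each has a promoter window with the same motif letters, so these starts are shown first. Mmp13, Mmp12, Mmp3 and Mmp10 belong to a run of 10 neighboring protein-coding genes on chromosome 9 in the RefSeq order, all of them metalloproteinase genes, of which 6 were tested. RefSeq promoter windows for GRCm38.p6 were at hand, each 300 bases long, from 250 before to 50 after an annotated start, for 8 of the 10 members, with none for Mmp2 and Mmp9. Each stretch printed here runs from 120 bases before the start to 20 bases after it on the plus strand, at chr9:7445702-7445841 for Mmp3, chr9:7502222-7502361 for Mmp10, chr9:7347254-7347393 for the second of 2 Mmp12 windows and chr9:7272394-7272533 for Mmp13. Capitals mark matches on either strand to TGANTCA, the core of the binding site of AP-1 (Fos and Jun proteins), and to TATAAA, the TATA box.
Mmp3: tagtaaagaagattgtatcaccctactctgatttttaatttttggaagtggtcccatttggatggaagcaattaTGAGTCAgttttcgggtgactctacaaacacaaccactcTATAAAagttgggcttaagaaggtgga
Mmp10: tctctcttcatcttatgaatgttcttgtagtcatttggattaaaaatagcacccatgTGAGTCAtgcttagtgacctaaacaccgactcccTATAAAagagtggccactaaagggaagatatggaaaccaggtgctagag
Mmp12: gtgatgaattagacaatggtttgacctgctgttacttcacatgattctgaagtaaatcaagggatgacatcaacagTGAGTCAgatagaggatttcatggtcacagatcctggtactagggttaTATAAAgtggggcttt
Mmp13: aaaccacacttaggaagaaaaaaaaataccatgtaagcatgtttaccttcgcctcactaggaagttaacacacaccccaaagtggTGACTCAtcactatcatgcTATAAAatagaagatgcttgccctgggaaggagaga

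The AP-1 letters began 46 bases before the annotated start of Mmp3, 63 before that of Mmp10, 44 before that of Mmp12 and 35 before that of Mmp13. A TATAAA match followed at 7, 29 and 16 bases before the start in Mmp3, Mmp10 and Mmp13, and at base 5 after the start in Mmp12. The AP-1 letters stood in windows of 4 of the 8 members with a window, and in 7.81% of all 32851 windows in the table. TATAAA stood in windows of the same 4 members and in 13.6% of all windows. The first Mmp12 window held no match to any motif searched. A match is a description of letters and not a site at which binding was measured.

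The starts of 2 inhibitor genes, Timp3 and Timp1, are shown for contrast, with capitals marking GGGCGG, the GC box, on either strand. The stretch of Timp3 lies at chr10:86300292-86300431 and that of Timp1 at chrX:20870046-20870185, both on the plus strand of GRCm38.p6.
Timp3: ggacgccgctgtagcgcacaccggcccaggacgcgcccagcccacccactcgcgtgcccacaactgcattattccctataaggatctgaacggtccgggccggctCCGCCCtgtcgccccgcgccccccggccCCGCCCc
Timp1: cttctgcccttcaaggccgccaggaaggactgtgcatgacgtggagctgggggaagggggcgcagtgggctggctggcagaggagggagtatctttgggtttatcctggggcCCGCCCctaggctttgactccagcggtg

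Neither held TGANTCA or TATAAA in its 300-base window. GGGCGG was found in the windows of Mmp14, Timp1, Timp2 and Timp3 and in 35.7% of all windows. The full cAMP response element TGACGTCA was in none of the 9 windows of the members, against 1.79% of all windows, which says only that these letters are not there.

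**Figure D1:**
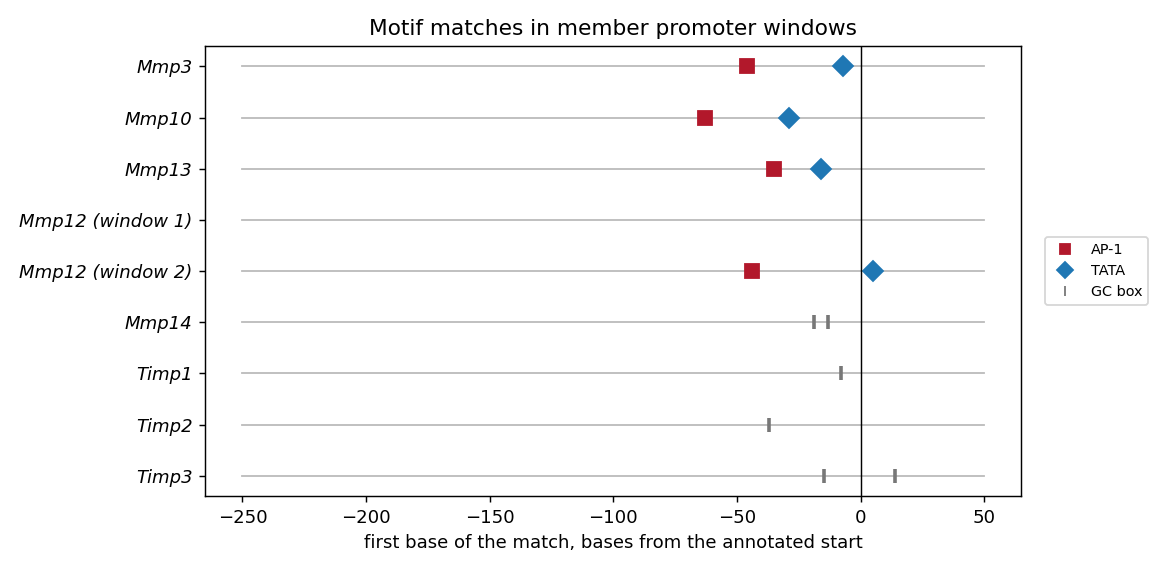
Matches to 3 motifs in the promoter windows of 8 members, with the first base of each match in bases from the annotated start on the horizontal axis and 1 line per window. AP-1 and TATA matches stand in the windows of Mmp3, Mmp10, Mmp13 and Mmp12 (window 2), and GC boxes in those of Mmp14, Timp1, Timp2 and Timp3.

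Under the combination, 3 of the 10 members were called against vehicle, and all 3 were higher. They were the gelatinase Mmp2 (3.17-fold), the inhibitor Timp3 (2.69-fold) and the stromelysin Mmp3 (2.19-fold). Over all genes, 14.2% were called in this comparison, 5.57% higher and 8.61% lower. That split depends on the scaling, since 1205 genes were called higher and 1862 lower as scaled here, but 1605 and 853 after quantile normalization. With an adjusted p of at most 0.05 at any fold, 5 members passed, 4 of them higher (Mmp14 as well) and 1 lower (Timp1), against 35.6% of all genes. At the unadjusted threshold the same 3 members passed against 17.0% of genes. The median difference of the members was 0.36, against -0.24 over all genes. Both combination arrays lay on 1 side of both vehicle arrays for 7 of 10 members, against 73.4% of genes, so that separation by itself does not set the members apart.

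Neither agent alone gave a call. Under TP-16 0 of 10 members were called in limma at adjusted p, against 0.0555% of genes, and 0 at the unadjusted threshold with a fold of 2, against 6.67%. Mmp3 and Mmp13 passed the unadjusted p at smaller folds, against 27.9% of genes past it at any fold. Under anti-PD-1 0 members were called at adjusted p, against 0.0740% of genes, and 0 at the unadjusted threshold, against 4.14%, with Mmp3, Mmp13 and Timp3 past the unadjusted p at smaller folds, against 15.0% of genes past it at any fold. The methods' t-test gave 0 members in both comparisons at the threshold of the methods, against 1.86% of genes under TP-16 and 1.07% under anti-PD-1. The median member difference was -0.022 under TP-16 and 0.28 under anti-PD-1, against -0.15 and -0.099 over all genes. The arrays did not overlap with vehicle for 4 members under TP-16, against 58.0% of genes, and for 6 under anti-PD-1, against 50.9%. All 3 comparisons use the same 2 vehicle arrays.

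**Figure D2:**
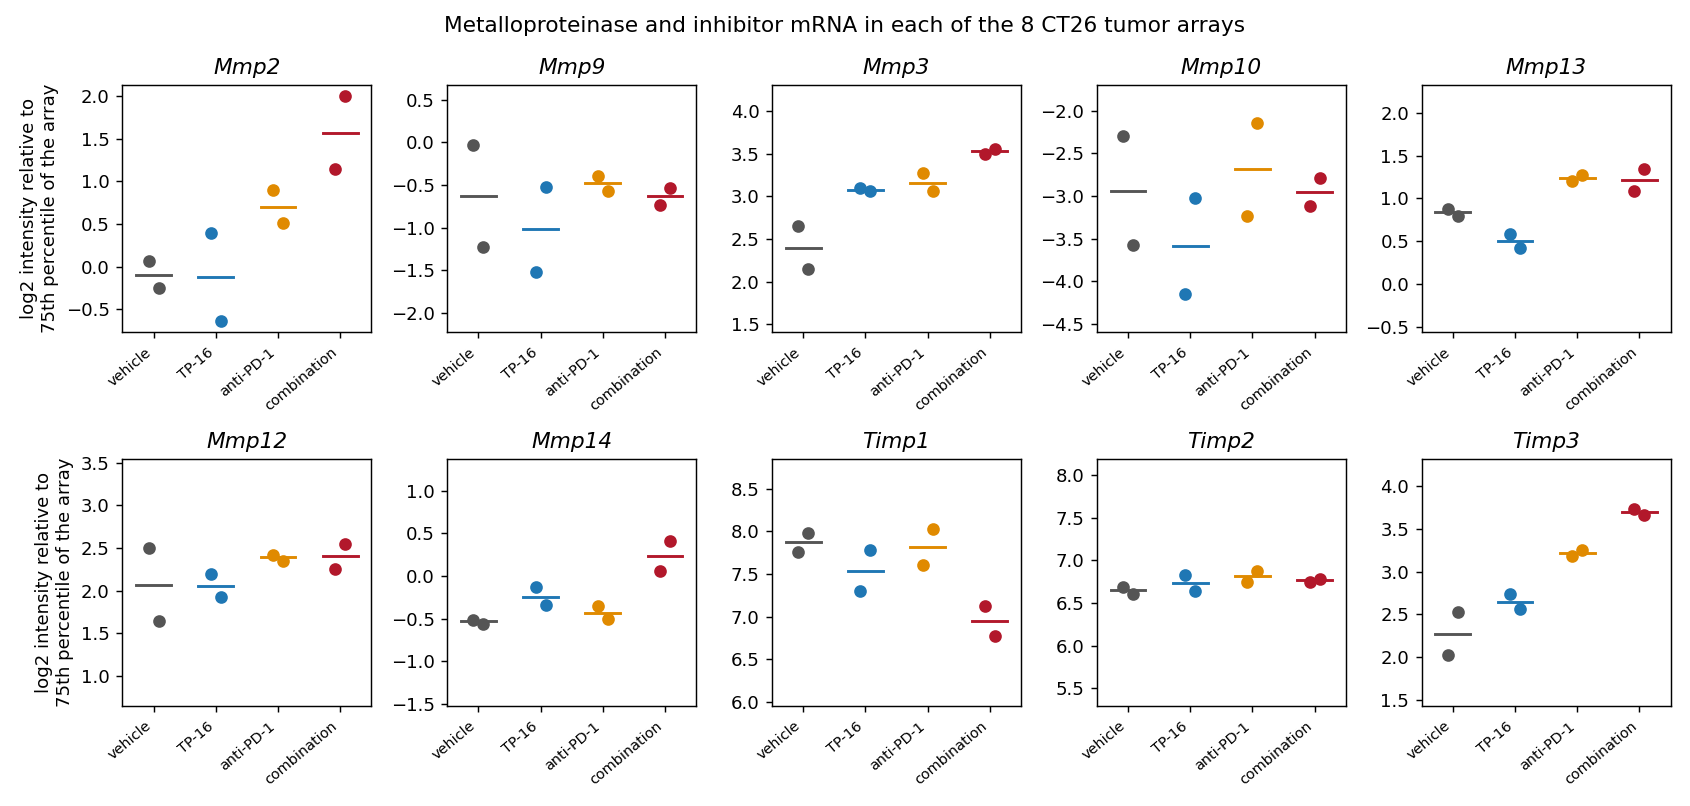
Log2 intensity relative to the 75th percentile of the array for the representative probe of each member, 1 point per array and a line at each group mean (n = 2). Each panel spans the same height on its own scale. The combination arrays of Mmp2, Mmp3, Mmp14 and Timp3 lie above all 6 other arrays, and those of Timp1 below all 6.

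Among the gelatinases, which cleave denatured collagen and basement membrane collagen, Mmp2 rose under the combination and Mmp9 showed no difference beyond its spread. Mmp2, typically a product of stromal cells, was read by a probe at chr8:95376840-95376899 on the plus strand (mm9, the build of the array annotation). Its level was 0.071 and -0.25 in the vehicle arrays, 0.40 and -0.64 under TP-16, 0.90 and 0.51 under anti-PD-1, and 1.14 and 2.00 under the combination. Both combination arrays lay above all 6 others, both anti-PD-1 arrays lay above the vehicle and TP-16 arrays, and the TP-16 arrays enclosed the vehicle arrays. The combination mean of 1.57 ± 0.61 (SD, n = 2) exceeded the vehicle mean of -0.091 ± 0.23 by 1.66 (SE 0.43, 95% interval 0.60 to 2.73, limma adjusted p = 0.0348), or by 1.86 relative to the median of all probes. Against vehicle, the difference was 0.80 under anti-PD-1 (SE 0.43, limma adjusted p = 0.428) and -0.027 under TP-16 (SE 0.43, limma adjusted p = 0.972). The call for Mmp2 was lost without vehicle replicate 1 (limma adjusted p = 0.0674), vehicle replicate 2 (0.111), either anti-PD-1 array (0.0596 each) or combination replicate 2 (0.174, difference 1.23), with the replicate number as a block (0.051), with no filter on dim probes (0.0527), with only the groups compared (0.0677) and with the methods' t-test after adjustment (0.215), and over all alternatives its adjusted p ran from 0.00995 to 0.215.

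Mmp9, an enzyme stored in neutrophil granules and also made by macrophages, was read by a pair of probes. On the brighter probe it stood at -0.036 and -1.23 in the vehicle arrays, -1.52 and -0.52 under TP-16, -0.39 and -0.57 under anti-PD-1, and -0.74 and -0.53 under the combination. The vehicle arrays enclosed those of the anti-PD-1 and combination groups, and vehicle replicate 1 was the highest of all. The combination differed from vehicle by -0.0019 on this probe (95% interval -1.16 to 1.16) and by -0.19 on the other (-1.67 to 1.30), so a change of 2-fold in either direction lies within both intervals. Vehicle replicate 1 was also the highest and TP-16 replicate 1 the lowest array on the second probe.

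The stromelysins cleave proteoglycans and activate other metalloproteinases. Of the 2 among the members, Mmp3 and Mmp10, Mmp3 rose under the combination, while the difference between the 2 was not tested. Mmp3 (stromelysin-1, probe at chr9:7455751-7455810, plus strand, mm9) read 2.65 and 2.15 in the vehicle arrays, 3.10 and 3.06 under TP-16, 3.27 and 3.06 under anti-PD-1, and 3.50 and 3.56 under the combination. Every treated array lay above both vehicle arrays, and the combination arrays lay above all others, while the single-agent groups overlapped each other. The rise under the combination was 1.13 (SE 0.19, 95% interval 0.67 to 1.59, limma adjusted p = 0.0122), or 1.33 relative to the median of all probes. Differences of 0.68 under TP-16 (SE 0.19, limma adjusted p = 0.11) and 0.76 under anti-PD-1 (SE 0.19, limma adjusted p = 0.249) did not pass. Leaving out combination replicate 2 gave an adjusted p of 0.0802, and leaving out vehicle replicate 2 a difference of 0.88, below the fold of 2, within a range of adjusted p over the alternatives of 0.00286 to 0.19. Without vehicle replicate 1, Mmp3 under TP-16 differed by 0.94 (limma adjusted p = 0.0487, range 0.038 to 0.444).

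Mmp10 (stromelysin-2) stood at -2.30 and -3.58 in the vehicle arrays, -4.15 and -3.03 under TP-16, -3.23 and -2.15 under anti-PD-1, and -3.12 and -2.79 under the combination. The groups overlapped throughout, and both combination arrays lay between the vehicle arrays. The difference of the combination from vehicle was -0.01 (95% interval -1.50 to 1.48, limma adjusted p = 0.991) and turned to 0.58 after quantile normalization, so no direction can be given. The interval includes the rise of Mmp3. Mmp10 and Mmp3 carry the same AP-1 and TATA letters in the sequences printed above, in the same order.

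Mmp13, the collagenase that opens fibrillar collagen in rodents, read 0.88 and 0.79 in the vehicle arrays, 0.58 and 0.42 under TP-16, 1.21 and 1.27 under anti-PD-1, and 1.09 and 1.34 under the combination. Both TP-16 arrays lay below vehicle, and both anti-PD-1 arrays and both combination arrays lay above it. The differences were -0.34 under TP-16 (SE 0.13, limma adjusted p = 0.184), 0.40 under anti-PD-1 (SE 0.13, limma adjusted p = 0.302) and 0.38 under the combination (SE 0.13, limma adjusted p = 0.0733). The combination value passed under normexp background correction (0.0246) and under trended and robust moderation (0.0453), within a range of 0.0246 to 0.3. The combination and anti-PD-1 arrays overlapped, with a difference of -0.02 (95% interval -0.34 to 0.31).

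Mmp12, the macrophage elastase, was read by 3 probes. The brightest stood at 2.50 and 1.64 in the vehicle arrays, 2.19 and 1.92 under TP-16, 2.42 and 2.35 under anti-PD-1, and 2.25 and 2.55 under the combination. Vehicle replicate 2 was the lowest array on all 3 probes. The combination differed from vehicle by 0.33, 0.73 and 1.10 on the 3 probes, from the brightest to the dimmest (limma adjusted p = 0.409, 0.206 and 0.157). Only on the dimmest did both combination arrays clear both vehicle arrays. Without vehicle replicate 1 the brightest probe differed by 0.76 (limma adjusted p = 0.046), and without vehicle replicate 2 by -0.095, within a range of adjusted p of 0.046 to 0.779.

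Mmp14, a membrane-anchored enzyme that activates the Mmp2 precursor at the cell surface, was read by a probe at chr14:55058775-55058834 (plus strand, mm9). It stood at -0.51 and -0.56 in the vehicle arrays, -0.13 and -0.34 under TP-16, -0.35 and -0.50 under anti-PD-1, and 0.064 and 0.41 under the combination. The combination arrays lay above the 6 others, and the single-agent arrays lay between them and vehicle, with TP-16 just above anti-PD-1. The combination mean rose by 0.77 (SE 0.16, 95% interval 0.38 to 1.15, limma adjusted p = 0.019), a fold of 1.70 that is under the fold of 2 used for a call. The adjusted p was 0.0586 without vehicle replicate 2 and 0.0989 without combination replicate 2, and ranged from 0.00679 to 0.19. TP-16 alone differed from vehicle by 0.30 (limma adjusted p = 0.28) and anti-PD-1 alone by 0.11 (limma adjusted p = 0.767).

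Of the 3 inhibitors, Timp3 rose under the combination under every scaling tried, and the changes of Timp1 and Timp2 depended on the scaling. Timp3, which binds to the extracellular matrix and also inhibits ADAM proteases, was read by a probe at chr10:85811696-85811755 (plus strand, mm9) and by a second one downstream at chr10:85812041-85812100. The first read 2.02 and 2.53 in the vehicle arrays, 2.74 and 2.57 under TP-16, 3.19 and 3.25 under anti-PD-1, and 3.73 and 3.67 under the combination. The groups did not overlap on this probe, and their levels climbed from vehicle through TP-16 and anti-PD-1 to the combination, though TP-16 replicate 2 and vehicle replicate 2 lay close together. The combination rose by 1.43 (SE 0.18, 95% interval 0.97 to 1.88, limma adjusted p = 0.0102), and anti-PD-1 differed by 0.95 (SE 0.18, limma adjusted p = 0.228) and TP-16 by 0.38 (SE 0.18, limma adjusted p = 0.248). On the second probe the combination rose by 1.13 (SE 0.27, limma adjusted p = 0.0279), and there the TP-16 arrays overlapped with vehicle. Without combination replicate 2 the adjusted p on the first probe was 0.065, within a range of 0.00191 to 0.175. Without vehicle replicate 2, Timp3 was called under anti-PD-1 as well (1.20, limma adjusted p = 0.0436, range 0.0436 to 0.567).

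Timp1, an inhibitor that is induced in inflamed and wounded tissue, was read by a probe at chrX:20451675-20451733 (plus strand, mm9). It stood at 7.76 and 7.98 in the vehicle arrays, 7.30 and 7.78 under TP-16, 7.61 and 8.03 under anti-PD-1, and 7.13 and 6.77 under the combination. Both combination arrays lay below the 6 others, and the single-agent arrays overlapped with vehicle. The combination mean fell by 0.92 (SE 0.24, 95% interval -1.52 to -0.32, limma adjusted p = 0.0366), a fold of 1.90 that is under the fold of 2. This fall depended on the scaling. After quantile normalization its difference was -0.28 (limma adjusted p = 0.306, range over all alternatives 0.0176 to 0.306), with the combination arrays at 16.32 and 16.13 and the 6 others between 16.35 and 16.75 on the log2 scale of that table. Timp1 lies among the 3192 brightest of the tested probes, whose median difference was -0.52 as scaled here and -0.076 after quantile normalization. The adjusted p of Timp1 also exceeded 0.05 without any 1 array of the vehicle (0.0639 and 0.117), anti-PD-1 (0.0507 each) or combination group (0.0643 and 0.183).

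Timp2, which inhibits the enzymes and also takes part in Mmp2 activation together with Mmp14, was read at 6.69 and 6.61 in the vehicle arrays, 6.83 and 6.64 under TP-16, 6.74 and 6.87 under anti-PD-1, and 6.75 and 6.78 under the combination. The 8 arrays spanned a narrow range. The combination differed by 0.12 (95% interval -0.17 to 0.41, limma adjusted p = 0.466) and on a second probe by 0.063 (-0.24 to 0.36), and these intervals hold no change as large as 2-fold. Timp2 is among those brightest probes too, and after quantile normalization the difference was 0.70 (limma adjusted p = 0.0315, range 0.0306 to 0.714).

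**Figure D3:**
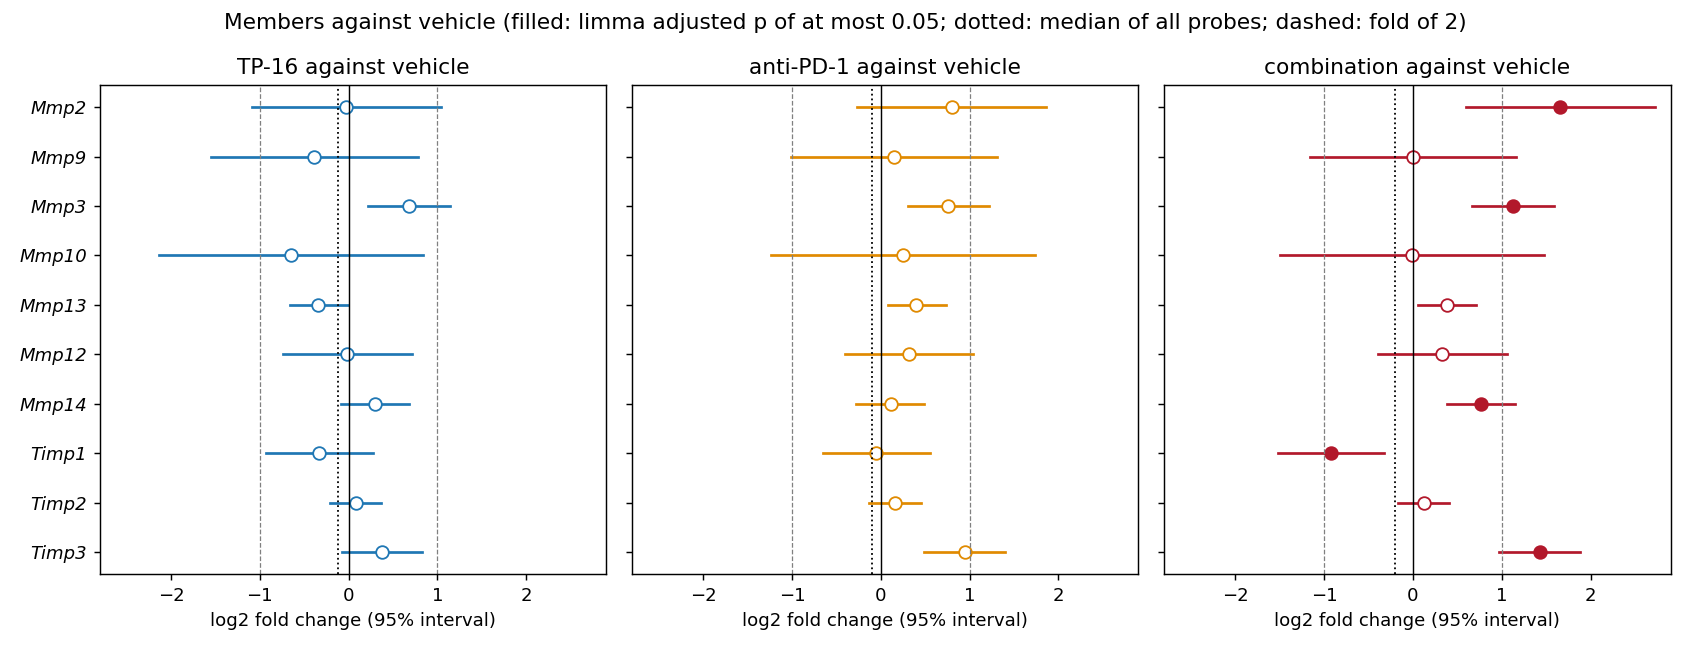
Log2 fold change of each member against vehicle in each treated group, with 95% intervals from limma, filled where the adjusted p is at most 0.05. The filled points are Mmp2, Mmp3, Mmp14, Timp1 and Timp3, all under the combination, and the dotted line at -0.20 in that panel is the median of all probes.

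**Figure D4:**
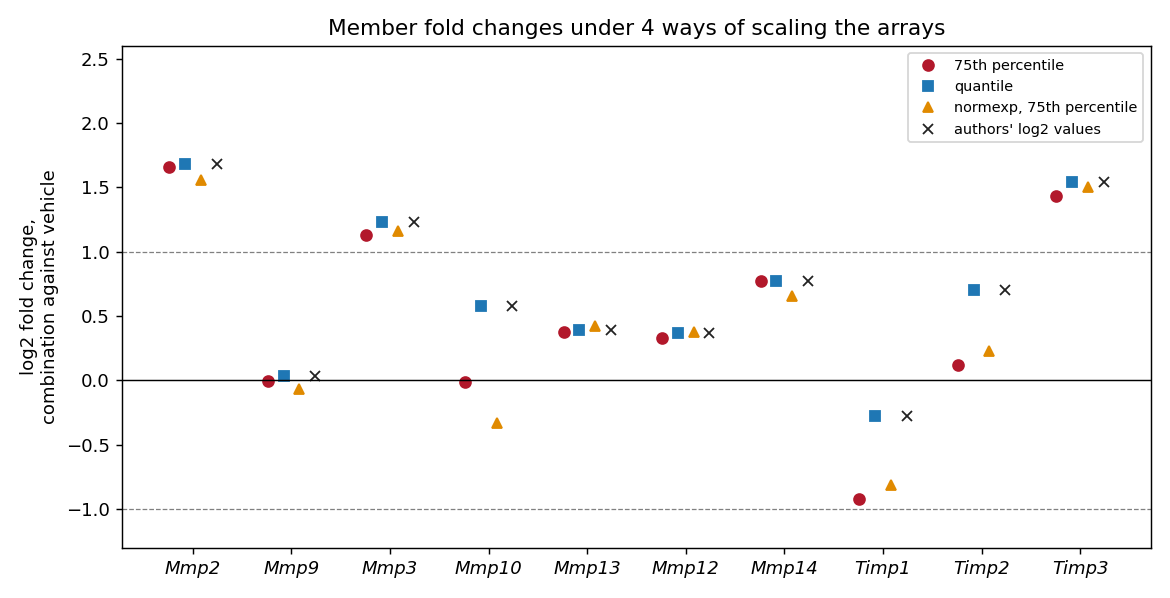
Log2 fold change of each member between combination and vehicle under 4 ways of scaling the arrays. Mmp2, Mmp3 and Timp3 lie above 1 in all 4, while Timp1 lies at -0.92 under the 75th percentile and at -0.28 after quantile normalization, and Timp2 at 0.12 and 0.70.

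The combination was also set against each agent alone, to see whether adding the second agent moved the members further. Against TP-16, 0 members were called in limma at adjusted p (0% of genes were), and 2 passed the unadjusted threshold, Mmp2 with a difference of 1.69 (limma adjusted p = 0.14) and Timp3 with 1.05 (limma adjusted p = 0.114), against 4.87% of genes. Against anti-PD-1, 0 were called at adjusted p, against 0.0139% of genes, and 0 at the unadjusted threshold, against 4.70%. The nearest were Mmp14, with a difference of 0.66 (SE 0.16, limma adjusted p = 0.0835), and Timp1, with -0.87 (SE 0.24, limma adjusted p = 0.108). Mmp2 differed from anti-PD-1 by 0.87 (SE 0.43, limma adjusted p = 0.261), Timp3 by 0.48 (SE 0.18, limma adjusted p = 0.174) and Mmp3 by 0.37 (SE 0.19, limma adjusted p = 0.27).

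Whether the agents together did more than the sum of their separate changes was tested as the change under the combination less the changes under each agent alone. In limma 0 members passed, against 0% of genes at adjusted p, and 0 at the unadjusted threshold, against 3.28%. The estimate was 0.89 for Mmp2 (95% interval -0.61 to 2.40), 0.10 for Timp3 (-0.54 to 0.74), -0.32 for Mmp3 (-0.96 to 0.33), 0.37 for Mmp14 (-0.18 to 0.91) and -0.54 for Timp1 (-1.39 to 0.31). Every interval includes 0, and that of Mmp2 also includes a 4-fold departure.

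The wider protease system was read through 40 other genes, of which 30 were tested. Under the combination 6 of the 30 were called against vehicle, all higher, against 14.2% of all genes called in either direction. They were Mmp25, Mmp23, Adam8, Adam19, Adamts2 and Adamts12. With an adjusted p of at most 0.05 at any fold, 13 of the 30 passed, 9 higher and 4 lower, against 35.6% of all genes. Under TP-16 and under anti-PD-1, 0 of the 30 were called in limma at adjusted p, against 0.0555% and 0.0740% of all genes. At the unadjusted threshold 1 gene, Adamts5, was lower under TP-16, against 6.67% of genes called in either direction. None passed under anti-PD-1, against 4.14%. The median difference of the list was 0.12 under the combination, against -0.24 over all genes.

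Mmp25 is a membrane-anchored metalloproteinase typical of neutrophils. It stood at -6.27 and -4.20 in the vehicle arrays and at -2.60 and -2.06 under the combination, with both combination arrays but neither vehicle array well above background. Each vehicle array was therefore taken at the lowest level well above background on it or at the probe's own level, whichever was higher. With that floor the means of these arrays differed by at least 3.07-fold, a bound that was not tested. The difference as measured was 2.91 (limma adjusted p = 0.0246). Mmp23 stood at -1.74 and -1.73 in the vehicle arrays and at -0.39 and 0.14 under the combination, a rise of 1.61 (SE 0.40, limma adjusted p = 0.0314). For both genes the combination arrays lay above all 6 others.

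Adam8, a protease of leukocytes, rose by 1.12 (SE 0.18, limma adjusted p = 0.0117), from 4.35 and 4.49 to 5.31 and 5.75, and its second probe rose by 1.71. Adam19, a further membrane-bound protease, rose by 1.63 (SE 0.28, limma adjusted p = 0.0134), from -0.72 and -0.92 to 0.47 and 1.14. Adamts2, which trims the amino end of fibrillar procollagens, rose by 1.39 (SE 0.25, limma adjusted p = 0.0143), from 2.52 and 2.34 to 3.54 and 4.09, and its second probe by 2.76. Adamts12 stood at -3.03 and -4.77 in the vehicle arrays and -1.95 and -1.53 under the combination, with every array but the lower vehicle array well above background. With that array at its floor, taken as for Mmp25, the means differed by at least 3.21-fold, again a bound that was not tested. The difference as measured was 2.16 (limma adjusted p = 0.0431, and 0.077 after quantile normalization). In each of these 4 genes both combination arrays exceeded all others.

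Past adjusted p at folds below 2, Mmp8, Mmp19 and Adam17 rose and Mmp11, Mmp28, Plaur and Furin fell. The second probe of Mmp19 differed by 0.11 (limma adjusted p = 0.808) against 0.79 on the brighter one, and 2 further probes of Adam17 by 0.89 and 0.34 (limma adjusted p = 0.0579 and 0.504). Furin, the convertase that activates Mmp14 and several ADAM proteases, fell by 0.97 (SE 0.12, limma adjusted p = 0.0102), but its second probe differed by 0.28 (limma adjusted p = 0.231) and after quantile normalization the brighter one by -0.028 (limma adjusted p = 0.831), so its direction is uncertain. Plaur, the urokinase receptor, fell by 0.61 (SE 0.13, limma adjusted p = 0.0211), and after quantile normalization differed by -0.31 (limma adjusted p = 0.121). Adamts5 differed by -0.81 on its brighter probe (limma adjusted p = 0.0798) and rose by 1.99 on the other (limma adjusted p = 0.0215), and these 2 probes also disagree. Reck, a membrane-anchored inhibitor, differed by 0.41 (SE 0.13, limma adjusted p = 0.063), and Timp4 was not tested.

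**Figure D5:**
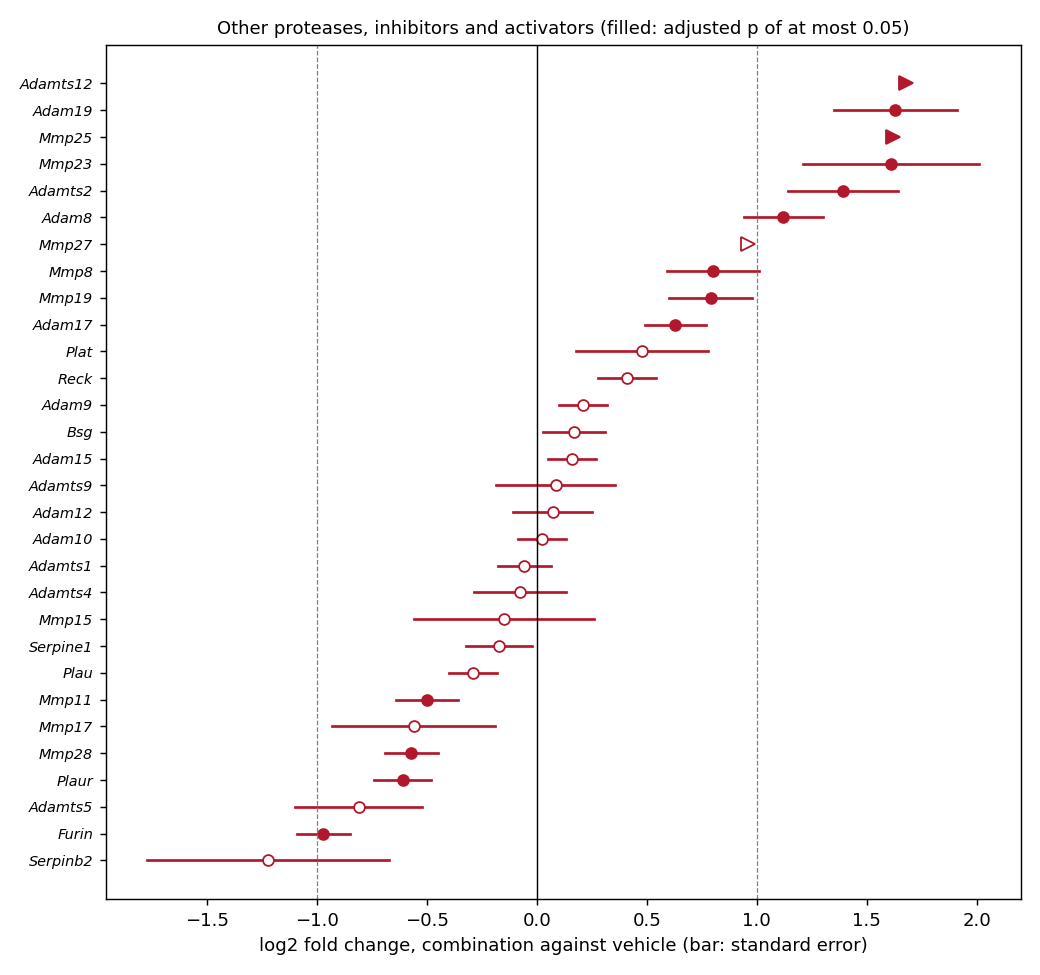
Log2 fold change between combination and vehicle for the 30 tested genes of the wider protease system, with standard errors, filled where the limma adjusted p is at most 0.05. Triangles are lower bounds for genes not well above background on some vehicle array, Adamts12 (1.68), Mmp25 (1.62) and Mmp27 (0.96). They are filled by the adjusted p of the difference as measured, since the bounds were not tested. The lowest filled point is Furin (-0.97), whose second probe reads 0.28 and which reads -0.028 after quantile normalization.

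In whole tumor RNA, more cells of a type and more RNA per cell cannot be told apart, and marker lists of several cell types moved with the members. The summed level of the 10 fibroblast markers, in multiples of the 75th percentile intensity of the array, was 263 to 299 in the vehicle arrays, 297 to 346 under TP-16, 345 to 391 under anti-PD-1 and 499 to 536 under the combination. Under the combination 4 of the 10 were called higher (Col1a1, Col3a1, Pdgfra and Postn) and 0 lower, against 5.57% and 8.61% of all genes, shares that also stand behind the counts of the lists that follow, and all 10 were above background on all arrays. The mean of their log2 levels was 3.04 to 3.33 in the vehicle arrays, 2.93 to 3.42 under TP-16, 3.53 to 3.79 under anti-PD-1 and 4.14 to 4.43 under the combination, so that TP-16 enclosed vehicle. The part of the fibroblast markers in the changes of Timp3, Mmp2, Mmp3 and Mmp14 was not tested.

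The 10 macrophage markers summed to 169 to 223 in the vehicle arrays, 216 to 231 under TP-16, 192 to 233 under anti-PD-1 and 284 to 397 under the combination, with 5 called higher and 0 lower, although Cd14 fell by 0.51 (limma adjusted p = 0.0337). Of the 9 tested T and NK cell markers 4 were called higher, with sums of 5.16 to 19.8 in the vehicle arrays, 25.9 to 33.2 under TP-16, 25.9 to 32.1 under anti-PD-1 and 41.4 to 69.5 under the combination, so that every treated array lay above vehicle. Under either agent alone 0 of these T and NK cell markers were called in limma at adjusted p, against 0.0555% of all genes under TP-16 and 0.0740% under anti-PD-1. Of the 9 tested neutrophil markers 2 were called lower (S100a8 and S100a9) and 0 higher. Their sum was 107 to 117 in the vehicle arrays, 78 to 88.8 under TP-16, 95.1 to 96 under anti-PD-1 and 56.2 to 70.4 under the combination, but the mean of their log2 levels overlapped between vehicle and combination (-0.80 to 0.077 and -0.36 to -0.18), and their median difference of -0.17 lay near that of all probes (-0.20). Of 6 endothelial markers 1 was called higher (Vwf), and none was called among 5 skeletal muscle, 3 epidermis and 4 adipose tissue markers tested. The part of these cell types in the member changes was not tested.

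The labels name a colorectal cancer, and the epithelial markers were thin. Epcam and Vil1 were not well above background on both arrays of any group and were not tested. Krt8, Krt18 and Cdh1 were above background on all 8 arrays, and Krt19, Cldn4 and Cdx2 on some. Cldn4 and Cdx2 entered the tests only through the vehicle group, so they are left out of the counts and sums. Of the other 4 tested markers, Krt18 was called lower (-1.39, limma adjusted p = 0.0196), while Krt8 differed by -2.68 (limma adjusted p = 0.0525), Krt19 by -0.73 (0.227) and Cdh1 by 0.82 (0.22). The sum of these 4 was 9.01 to 13.2 in the vehicle arrays, 6.98 to 8.93 under TP-16, 7.44 to 8.06 under anti-PD-1 and 3.44 to 5.16 under the combination. The part of this list in the fall of Timp1 was not tested.

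The genes most like the members that rose and fell furthest were found by Pearson correlation over the 8 arrays, as a description. For Mmp2 these were Mfap2 (0.991) and Plagl1 (0.991), then Serpina1c (0.990), Chrdl1 (0.987) and Sema3g (0.986), and 111 genes exceeded 0.95. Serpina1c is 1 of several near-identical Serpina1 copies, which the probe may not separate. For Timp1 they were Aimp2 (0.993), Edf1, Mindy1, Mgst3 and Anxa7 (0.992 each), and 252 genes exceeded 0.95. All 8 points share the 4 treatment groups and the scaling, so a gene that differs between the groups can reach such a value without any other link.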

How the data were processed

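Total RNA was measured on 8 one-color Agilent arrays, 2 per treatment group, with groups and replicate numbers from the labels. The methods name TRIzol and the labels a column kit for RNA extraction. The authors deposited the scanner intensity of each spot, background-subtracted and detrended by Feature Extraction 10.7.1.1, with flags for outliers and background. A second deposited table holds log2 values that GeneSpring normalized by a method not given in the sources used here, and it served as an alternative.

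Control spots were removed, 959 flagged spots were masked, spots of a probe were averaged, and 38 of 56605 probes with no spot left on an array were dropped. Each array's 75th percentile was subtracted on the log2 scale, and 31912 probes were tested, those with both arrays of some group well above background. No probe was saturated on any array. The number of arrays, not a read depth, limits the precision. RefSeq (GRCm38.p6) named 58.3% of probes and the array annotation the others, and positions of probes are those of the annotation in mm9.

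A single limma 3.58.1 model held the 8 arrays (R 4.3.3), with a mean per group and empirical Bayes moderation, and Benjamini-Hochberg adjustment over all probes. The fit was tested on simulated data. The methods' threshold is an unadjusted p of at most 0.05 with a fold of at least 2. The members, the 40 other genes and the marker lists were chosen with earlier results of these data known. Named genes are all members, the listed genes called under the combination, and the 5 genes most correlated with the member that rose most and the one that fell most, and the others named (those past adjusted p at smaller folds, Adamts5, Reck and Timp4) were chosen after their values were seen. Promoters were searched with Python 3.11.15 and figures drawn with matplotlib 3.10.9. Alternatives were quantile normalization, normexp correction with an offset of 50, other filters, the most variable probe per gene, a block for replicate number, the deposited log2 values, separate fits of the groups compared, moderation with a trend and robust estimates, Student's test as in the methods, a fold of 1.5, and 7 of 8 arrays at a time.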

Additional observations from a re-analysis of the deposited data

How the results depend on the processing

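Of the member counts at adjusted p, the 3 calls under the combination became 0 with only the groups compared and with the methods' t-test after adjustment, as did the calls over all genes (0% in both). That t-test gave 2 members (Mmp3 and Timp3) at its own unadjusted threshold against 8.2% of genes, and a fold of at least 1.5 gave 5 members against 28.7% of genes. Leaving out 1 array gave 0 to 3 calls under the combination (0 without combination replicate 2, where 0% of genes were called, and 1 without vehicle replicate 2, against 12.4%) and 0 to 1 under anti-PD-1 (1 without vehicle replicate 2, against 1.01%). Against TP-16 the combination gave 1 call (Timp3) under normexp correction and under trended and robust moderation, against 0.560% and 0.786% of genes. The other alternatives left these 6 counts within 1.5 times.

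The replicate block left 2 members called under the combination, Mmp3 and Timp3, against 13.5% of genes, with Mmp2 at an adjusted p of 0.051, and changed no other count. Deviations of same-numbered arrays correlated between -0.19 and 0.29, which does not settle whether they share more than a number. In every group replicate 1 lay in slide column 1 or 3 and replicate 2 in column 2 or 4. The arrays were not treated as pairs in the main fit. All arrays share 1 slide and 1 scan, so no slide block was run.

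Some member differences changed sign. Under quantile normalization and with the authors' log2 values, Mmp10 read 0.047 and 0.048 and Timp1 0.027 and 0.028 under TP-16, Timp1 0.074 and 0.073 under anti-PD-1, and Mmp10 0.58 and 0.58 and Mmp9 0.032 and 0.033 under the combination. Mmp12 under TP-16 read 0.018 under normexp correction, and with the most variable probe Mmp12 read 0.43 and Timp2 -0.13 under TP-16 and Mmp9 -0.033 under anti-PD-1. Leaving out 1 array gave the following ranges. Under TP-16 they were -0.55 to 0.49 for Mmp2, -0.98 to 0.21 for Mmp9, -0.45 to 0.41 for Mmp12 and -0.012 to 0.18 for Timp2. Under anti-PD-1 they were -0.45 to 0.75 for Mmp9, -0.39 to 0.89 for Mmp10, -0.11 to 0.75 for Mmp12 and -0.27 to 0.16 for Timp1. Under the combination they were -0.60 to 0.59 for Mmp9, -0.65 to 0.63 for Mmp10 and -0.095 to 0.76 for Mmp12. As reported, with all arrays and the 75th percentile, none of these differences passed adjusted p, and of the values given here Mmp12 at 0.76, without vehicle replicate 1, did (limma adjusted p = 0.046). With 2 arrays per group, where a printed interval includes 0, a change of a size within it cannot be told from no change. The causes of the member differences given here were not tested.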
